A study of Mus musculus with 6 samples.

Results

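The genes examined were 43 genes that carry long-chain fatty acids into the cell, activate them, move them into mitochondria and oxidize them, with the peroxisomal enzymes of the same chemistry and the enzymes that make and break down malonyl-CoA. They were chosen by name, with earlier results of these data known. Each was matched to the gene name in the deposited table of 43432 genes and checked against the GENCODE M21 name of its Ensembl identifier. The table holds atrial RNA of 6 wild-type C57Bl/6J mice, 3 fed a high-fat diet (HFD) and 3 fed control chow, each for 10 weeks from 6 weeks of age, with right and left atrial tissue taken for each RNA sample. All 6 shared this wild-type background, no other treatment is named for them, and where the numbered samples of a diet were not from separate mice the p-values would measure technical spread only. The diet of each mouse was read from its sample title, which matches the Case and Control column names of a table named for high fat against control, whereas a separate treatment entry names the other diet in each of the 6 cases, and every direction below would turn round if that entry were right. Total recovered reads ran from 15874251 to 28971508 per library, with control mouse 2 the deepest. Levels are normalized counts, that is, the reads of a gene divided by a size factor of its library, and 3 reads, taken as the smallest signal, corresponded to 2.05 to 3.41 normalized counts. The lowest mean among the 43 genes was 127 normalized counts, so all 43 passed the filter of a mean of at least 10 that left 15275 genes for testing.

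Long-chain fatty acids are the main fuel of the adult heart. They enter the myocyte with help from the membrane receptor CD36 and transport proteins, are bound by heart-type fatty acid binding protein, and are joined to coenzyme A by acyl-CoA synthetases. Carnitine palmitoyltransferase 1 on the outer mitochondrial membrane exchanges coenzyme A for carnitine, carnitine palmitoyltransferase 2 on the inner membrane reverses this, and malonyl-CoA blocks the first of these enzymes. In the matrix the chain is shortened by repeated rounds of dehydrogenation, hydration, a further dehydrogenation and thiolytic cleavage, with separate enzymes for longer and shorter chains. Peroxisomes run a related pathway for very-long-chain and branched substrates.

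The receptor gene Cd36, the synthetase gene Acsl1, the carnitine genes Cpt1a, Cpt1b and Cpt2 and the long-chain oxidation genes Acadvl, Acadl and Hadha had higher values in every HFD mouse than in any control mouse, by 1.23-fold in mean for Acadl to 1.85-fold for Cpt1a. Acadm and Acads, for medium and short chains, overlapped between the groups, and the short-chain hydratase gene Echs1 had lower values in every HFD mouse. The genes named here were picked after their values were seen and do not stand for a division by chain length. The long-chain gene Hadhb overlapped, Acad9, which also takes long chains, was lower without overlap, and the medium-chain gene Acaa2 was higher without overlap. Of the 43 genes 31 (72.1%) had a higher and 12 (27.9%) a lower mean log2 value in HFD atria, beside 50.8% and 49.2% of all genes. The median log2 fold change of the 43 was 0.25 (1.00 would be a doubling), beside 0.00492 over all 15275 genes tested. By limma on log2(normalized count + 1), with Benjamini-Hochberg adjustment over all genes tested and a threshold of 0.05, 0 of the 43 were called in either direction, and the smallest adjusted p was 0.055, for Ech1. That rule called 0.484% of all genes higher and 0.262% lower. At an unadjusted limma p under 0.05, 17 of the 43 (39.5%) were higher, where 6.66% of all genes were, and 3 (6.98%) were lower, where 5.55% of all genes were. DESeq2 on the recovered reads called 11 of the 43 (25.6%) higher and 0 lower at an adjusted p under 0.05, beside 1.94% and 1.22% of all genes, while edgeR (TMM) called 0 in either direction, beside 0.373% of all genes higher and 0.196% lower. The 11 were Cd36, Acsl1, Cpt1a, Cpt1b, Cpt2, Acadvl, Hadha, Ech1, Decr1, Etfdh and Mlycd.

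The values of the HFD mice lay entirely above those of the control mice for 17 of the 43 genes (39.5%), which was so for 8.86% of all genes, and entirely below them for 4 (9.30%), against 9.17% of all genes. With 3 mice against 3 the two-sided exact permutation test cannot go below p = 0.1, so it gives that value for each gene whose groups do not overlap. The share of the 43 with higher values thus stood above the background by unadjusted p, by DESeq2 and by overlap, while the adjusted limma test called none, and the share with lower values stood near or below the background. The 43 genes were chosen with earlier results of these data known, and these measures all read the same values. The higher share is therefore a description and not independent evidence.

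**Figure D1:**
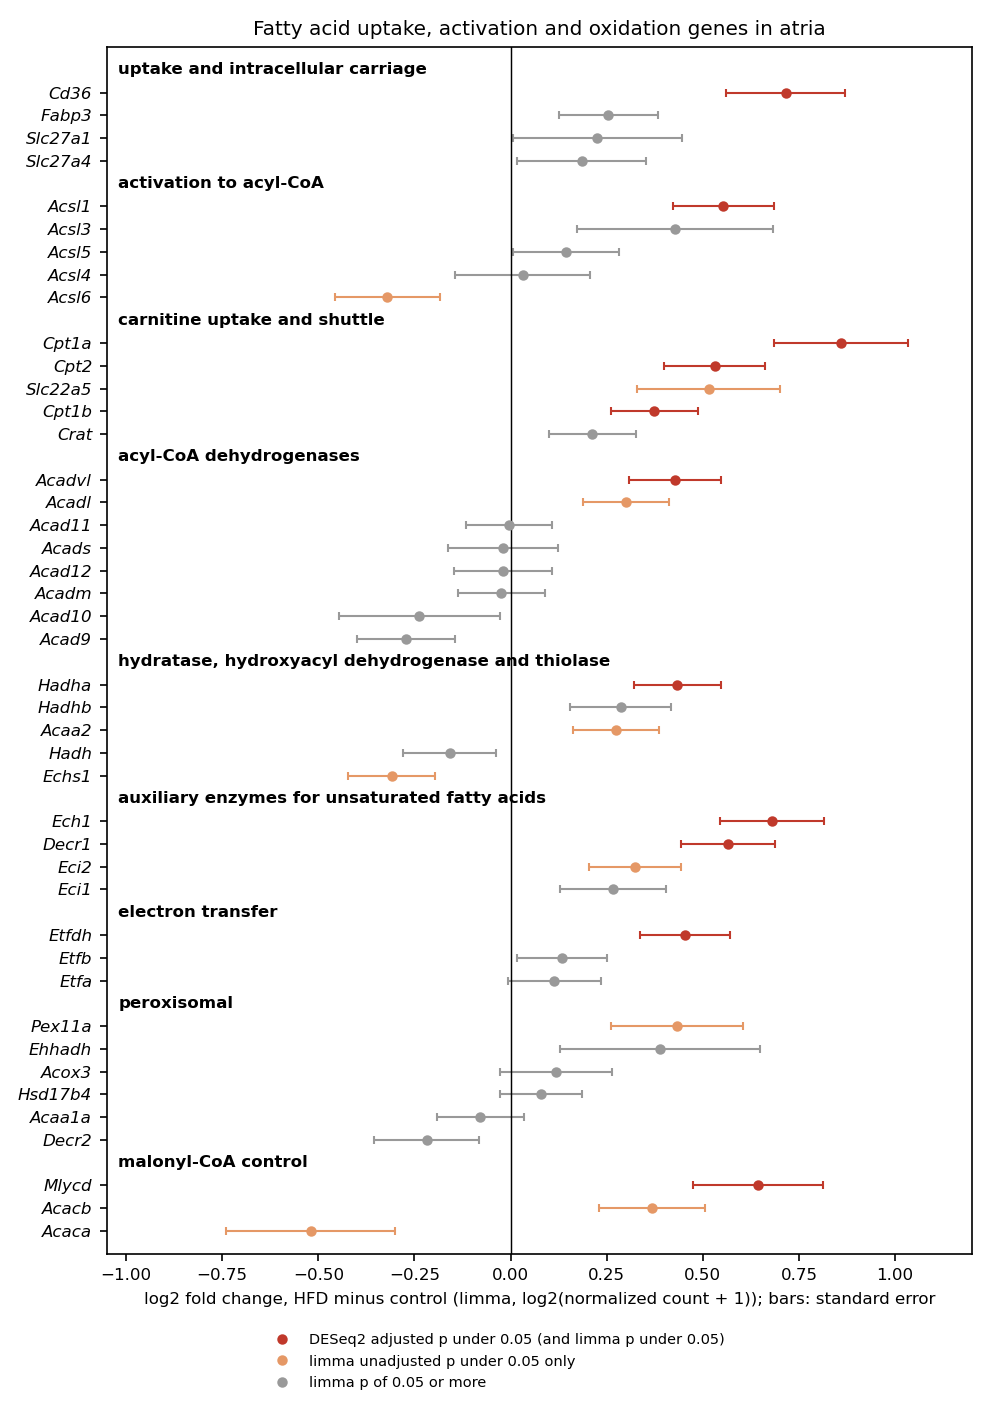
Log2 fold change of each of the 43 genes in HFD against control atria (horizontal axis, limma on log2(normalized count + 1), bars showing the standard error), grouped by step of the pathway. Red points mark the 11 genes called by DESeq2, orange points an unadjusted limma p under 0.05 only, and grey points the rest; all genes of uptake, the carnitine shuttle, the auxiliary enzymes and electron transfer lie to the right of 0.

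**Figure D2:**
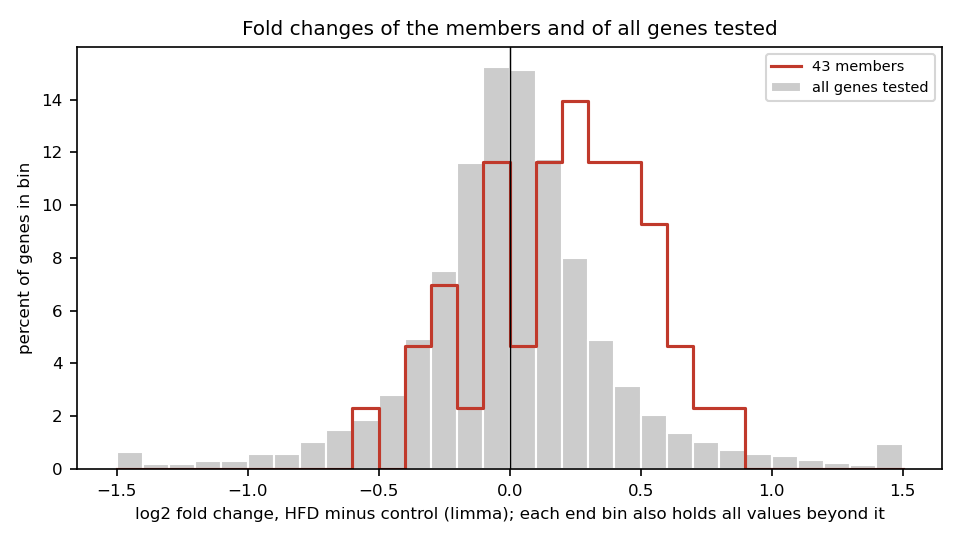
Distribution of log2 fold changes (horizontal axis, HFD minus control, in bins of 0.1, with values beyond the range in the end bins) as the percent of genes in each bin (vertical axis) for all 15275 genes tested (grey bars) and for the 43 genes (line). The line is shifted to the right, with a median of 0.25 against 0.00492.

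Among the 4 genes of uptake and intracellular carriage, all had higher means in HFD atria, and the median log2 fold change was 0.24. Cd36 (chr5:17781690-17888959, GRCm38), the fatty acid receptor of the cell surface, had 27740, 26431 and 19269 normalized counts in the HFD mice and 13928, 15505 and 14768 in the control mice. Its lowest HFD value, in mouse 3, was above every control value, and the means were 24480 ± 4559.9 against 14733 ± 789 (SD, n = 3 each), a 1.66-fold difference (log2 fold change 0.72, SE 0.15, limma adjusted p = 0.0686, DESeq2 adjusted p = 1.21e-04). Fabp3, the heart-type fatty acid binding protein, had 18168, 16238 and 17833 normalized counts in the HFD mice and 15735, 15423 and 12772 in the control mice. These groups did not overlap either, but the difference was small (log2 fold change 0.25, SE 0.13, limma adjusted p = 0.47, DESeq2 adjusted p = 0.41). Per kilobase of exon Fabp3 was the most abundant of the 43 genes, at a mean of 17793 normalized counts per kilobase in control atria. The transport proteins Slc27a1 (FATP1) and Slc27a4 (FATP4) had log2 fold changes of 0.23 and 0.19 with overlapping groups, and Slc27a1 ranged from 2481 to 4962 in the HFD mice and 3056 to 3561 in the control mice.

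CD36 is also made by endothelial cells, macrophages and adipocytes, and in bulk atria fewer cells of a type and less RNA per cell cannot be told apart. The 6 endothelial markers summed to 16237, 17226 and 16079.9 in the HFD mice and 13726, 14417 and 14349 in the control mice, without overlap, and the 6 macrophage markers summed to 4109, 4257 and 4136 in the HFD mice and 3729, 3743 and 3306 in the control mice, also without overlap. Within the endothelial list Pecam1 carried most of the difference in sums, with 6153, 6259 and 5339.5 normalized counts in the HFD mice and 4106, 3842 and 4019 in the control mice, while Cdh5 was at a log2 fold change of 0.04 and Egfl7 at -0.19. The 8 white adipocyte markers other than Lpl and Fabp4, which myocytes or endothelium also express, summed to 5540.2, 1670.5 and 2409 in the HFD mice and 3207, 1348 and 645 in the control mice and overlapped. The 4 brown adipocyte markers other than Cox7a1 and Cox8b, which heart muscle also expresses, summed to 1283, 616 and 1276 in the HFD mice and 330.3, 239 and 187 in the control mice, with no overlap, and Ucp1, their defining gene, had 706, 173 and 745 normalized counts in the HFD mice and 86.2, 5.48 and 15.3 in the control mice. Cox7a1 and Cox8b had log2 fold changes of -0.32 and -0.21. Summed over all 6 brown adipocyte markers, the groups overlapped, at 7565, 5824 and 7952 in the HFD mice and 7962, 8514 and 6324 in the control mice. Elovl3 had 14.1, 2.04 and 3.41 normalized counts in the HFD mice and 1.12, 0 and 0 in the control mice. It was at or under the floor of 3 reads in all but HFD mouse 1, and it fell below the filter and was not tested. The part of these cell types in the Cd36 difference was not tested.

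The nuclear receptors that regulate many of these genes, the peroxisome proliferator-activated receptors, bind as dimers with the retinoid X receptor to a direct repeat of the hexamer AGGTCA with 1 base between the copies. RefSeq promoter windows of GRCm38.p6, from 250 bases before to 50 after the start site, were given for 37 of the 43 genes (42 windows), and Acaa2, Acad9, Cpt1b, Crat, Decr1 and Hsd17b4 had no entry. A match on either strand with at most 2 mismatches in the 12 fixed bases was found in 3 of the 42 windows (7.14%), and in 3.86% of all 32851 windows. The matches lay before a RefSeq start site of Cd36, Echs1 and Etfa. For Cd36 this start site lies inside the gene span given above, so its match is not upstream of the whole gene. The matches are printed with 20 bases on either side, on the gene's strand, since of the 3 genes Cd36 was higher, Etfa nearly level and Echs1 lower in HFD atria. Capitals mark the matched 13 bases.
Cd36, chr5:17835927-17835979, minus strand: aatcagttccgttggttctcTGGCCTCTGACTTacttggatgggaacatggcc
Echs1, chr7:140116472-140116524, minus strand: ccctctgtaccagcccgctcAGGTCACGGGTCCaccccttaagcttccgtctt
Etfa, chr9:55512288-55512340, minus strand: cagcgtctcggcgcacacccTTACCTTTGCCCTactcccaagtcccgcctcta
The hexamer extended as TCAAGGTCA, a form bound by estrogen-related receptors, was matched exactly in 1 member window, that of Acsl6, and in 0.423% of all windows. A match is a run of letters, not a measured binding site.

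Of the 5 long-chain acyl-CoA synthetases, which trap fatty acids as acyl-CoA, 1 was higher and 1 lower without overlap. Of all genes, 8.86% were higher and 9.17% lower without overlap. Acsl1 (chr8:46471041-46536051), the main synthetase of heart muscle, had 12599, 12913 and 10179 normalized counts in the HFD mice and 8585, 7325 and 8330.0 in the control mice. All HFD values lay above all control values, with means of 11897 ± 1496 against 8079.8 ± 666 (SD, n = 3 each), a 1.47-fold difference (log2 fold change 0.55, SE 0.13, limma adjusted p = 0.0893, DESeq2 adjusted p = 0.00254). Acsl6 had 435, 425 and 394 normalized counts in the HFD mice and 487, 485 and 603 in the control mice. Its HFD values were all below the control values, with a log2 fold change of -0.32 (limma adjusted p = 0.377, DESeq2 adjusted p = 0.411). Acsl3 had 151, 173 and 110.2 normalized counts in the HFD mice and 103, 80.8 and 141 in the control mice, and in Acsl4 the corresponding values were 292, 382 and 324 against 299, 281 and 403. For Acsl5 they were 448, 459 and 562 against 474, 434 and 418. The groups overlapped for all of these 3 genes, whose log2 fold changes were 0.43, 0.03 and 0.14. Measured per kilobase, Acsl1 made up 82.6% ± 2.14 of the synthetase level in HFD atria and 77.1% ± 1.31 in control atria (SD, n = 3 each). The share of Acsl6 was 3.09% against 5.30%. These shares depend on the exon lengths used, 10.5 kb for Acsl1, 9.9 kb for Acsl6 and 4.4 to 5.4 kb for the others. The log2 ratio of Acsl1 to the summed counts of the other 4 was 3.25, 3.16 and 2.87 in the HFD mice and 2.66, 2.52 and 2.41 in the control mice, so that each HFD mouse stood above each control mouse.

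The carnitine steps held the largest median log2 fold change of the 9 steps, 0.52, with all 5 genes higher in mean. Cpt1a (chr19:3323301-3385732), the liver-type carnitine palmitoyltransferase 1, had 1669.6, 2036 and 1222 normalized counts in the HFD mice and 923, 799 and 944 in the control mice. The means were 1642 ± 407 against 889 ± 78.6 (SD, n = 3 each), and its difference was the largest of the 43 genes (log2 fold change 0.86, SE 0.17, limma adjusted p = 0.0577, DESeq2 adjusted p = 1.57e-04). Cpt1b, the muscle-type enzyme and the predominant form in heart, had 11646, 11811 and 11582 normalized counts in the HFD mice and 9952, 8457 and 8703 in the control mice. These groups were also apart, with a smaller difference (log2 fold change 0.37, SE 0.11, limma adjusted p = 0.185, DESeq2 adjusted p = 0.0432). Per kilobase Cpt1a was 5.82% ± 1.31 of the sum of both forms in HFD atria and 4.17% ± 0.351 in control atria (SD, n = 3 each). The log2 ratio of Cpt1a to Cpt1b was -2.802, -2.54 and -3.24 in the HFD mice and -3.43, -3.404 and -3.204 in the control mice. HFD mice 1 and 2 were above all controls in this ratio, and HFD mouse 3 lay within the control range.

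Cpt2, which re-forms acyl-CoA in the matrix, had 3422, 3198 and 2796 normalized counts in the HFD mice and 2502, 2143 and 1893 in the control mice. The groups did not overlap (log2 fold change 0.53, SE 0.13, limma adjusted p = 0.105, DESeq2 adjusted p = 0.0133). Slc22a5, the plasma membrane carnitine transporter OCTN2, ranged from 530.4 to 857 in the HFD mice and 437 to 562 in the control mice with a log2 fold change of 0.52 (limma adjusted p = 0.289), and its groups overlapped. Crat, carnitine acetyltransferase, ranged from 7048 to 8043 in the HFD mice and 6040.1 to 7028 in the control mice without overlap, at a log2 fold change of 0.21.

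**Figure D3:**
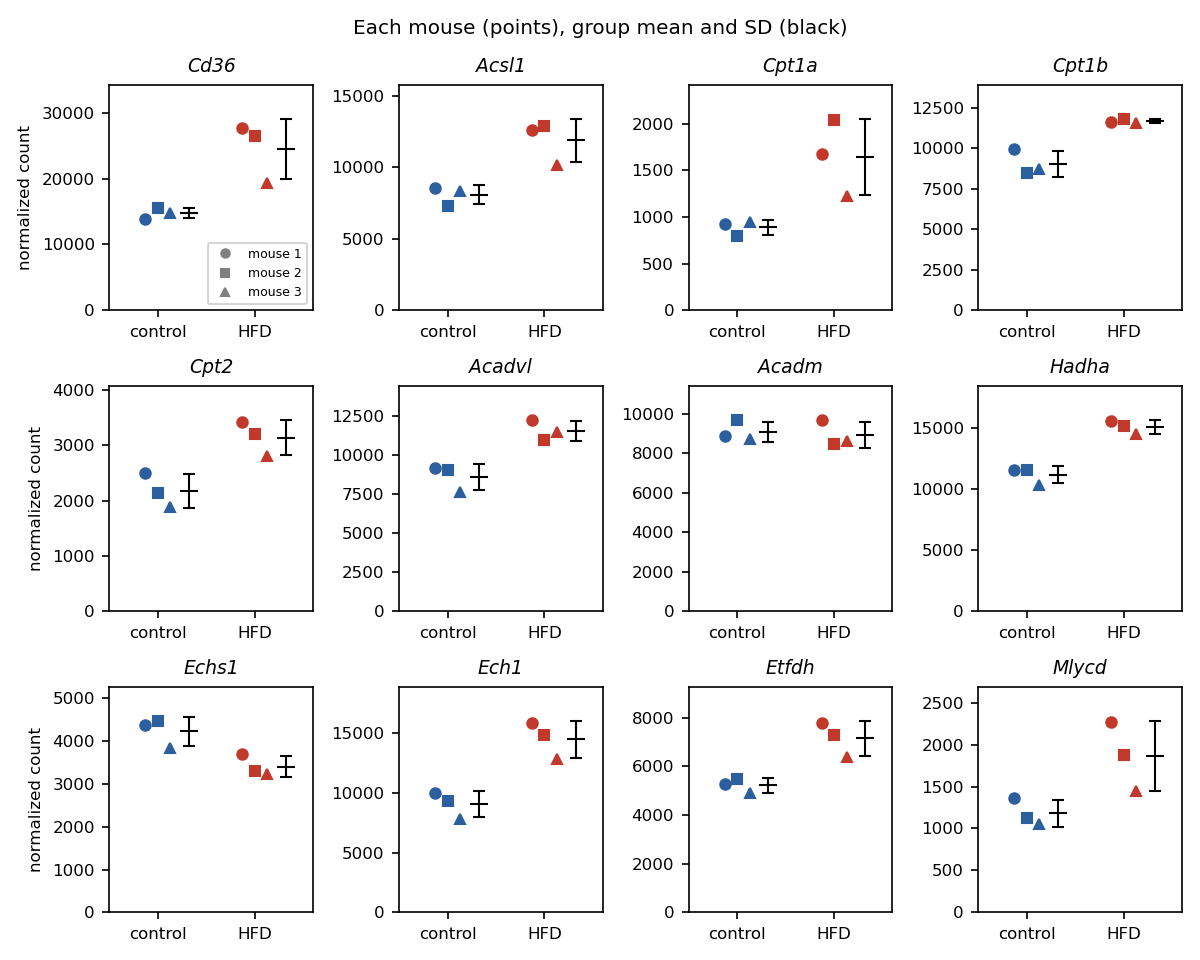
Normalized counts (vertical axes, from 0) of 12 of the genes in each control mouse (blue) and HFD mouse (red), with symbols for the mouse number and black bars for the group mean and SD (n = 3). The genes were chosen with their values known; the HFD points lie above the control points in all panels but Acadm, where they overlap, and Echs1, where they lie below.

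Of the 8 acyl-CoA dehydrogenases, which start each round of oxidation, Acadvl and Acadl were higher without overlap, Acad9 was lower without overlap, and the others overlapped. The shares of all genes without overlap were 8.86% higher and 9.17% lower. Acadvl, the very-long-chain enzyme, had 12221, 10954 and 11432 normalized counts in the HFD mice and 9138, 9022 and 7617 in the control mice. All HFD values exceeded the control values (log2 fold change 0.43, SE 0.12, limma adjusted p = 0.147, DESeq2 adjusted p = 0.0218). Acadl, the long-chain enzyme, had 14603, 13051 and 13783 normalized counts in the HFD mice and 11394, 11305 and 10923 in the control mice. These groups were likewise apart, with a log2 fold change of 0.30 (limma adjusted p = 0.303). Acadm, the medium-chain enzyme, had 9693, 8460.5 and 8644 normalized counts in the HFD mice and 8861, 9668 and 8706 in the control mice, which overlapped. Its log2 fold change was -0.02 with an SE of 0.11. Acads, the short-chain enzyme, was at -0.02 with an SE of 0.14. Of the others, Acad11 and Acad12 were at 0.00 and -0.02, Acad10 was at -0.24, and Acad9, which also serves in the assembly of respiratory complex I, was at -0.27 with all HFD values below the control values (564 to 656 in the HFD mice and 703 to 835 in the control mice).

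Hadha and Hadhb encode the subunits of the mitochondrial trifunctional protein, which carries out hydration, dehydrogenation and thiolysis of long chains. Hadha had 15559, 15159 and 14453 normalized counts in the HFD mice and 11569.6, 11571 and 10333 in the control mice. No HFD value overlapped a control value (log2 fold change 0.43, SE 0.11, limma adjusted p = 0.122, DESeq2 adjusted p = 0.00717). Hadhb had 18808, 17478 and 15359 normalized counts in the HFD mice and 13717, 15706 and 12922 in the control mice, which overlapped. The log2 fold change of Hadhb was 0.29 (limma adjusted p = 0.423), and the log2 ratio of Hadha to Hadhb overlapped between the groups, with a difference of 0.15. Echs1, the hydratase for short chains, had 3691, 3306 and 3226 normalized counts in the HFD mice and 4378, 4471 and 3829 in the control mice. Every HFD value was below every control value (log2 fold change -0.31, SE 0.11, limma adjusted p = 0.298, DESeq2 adjusted p = 0.196). Hadh, the medium- and short-chain hydroxyacyl-CoA dehydrogenase, had 4473, 4028 and 3580.1 normalized counts in the HFD mice and 4409, 4887 and 4164 in the control mice, which overlapped, with a log2 fold change of -0.16. Acaa2, the medium-chain thiolase, went the other way at 0.27, and its groups did not overlap (9739.7 to 10687 in the HFD mice and 7704 to 8746 in the control mice).

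Hadha and Hadhb lie head to head on chromosome 5, and the stretch between their RefSeq start sites is printed because both subunits are transcribed from its ends, in opposite directions, and both had higher means in HFD atria. It spans 272 bases of GRCm38.p6, with Hadha to its left on the minus strand and Hadhb to its right on the plus strand. The Ensembl span of Hadha ends at 30155162 and that of Hadhb starts at 30155248, both inside this stretch. By those spans, part of the stretch belongs to the genes and is not between them. Capitals mark 2 matches to GGGCGG, the GC box bound by Sp1, which was searched on both strands and occurs in 35.7% of all promoter windows and 71.4% of the 42 member windows.
Hadha to Hadhb, chr5:30154981-30155252, plus strand: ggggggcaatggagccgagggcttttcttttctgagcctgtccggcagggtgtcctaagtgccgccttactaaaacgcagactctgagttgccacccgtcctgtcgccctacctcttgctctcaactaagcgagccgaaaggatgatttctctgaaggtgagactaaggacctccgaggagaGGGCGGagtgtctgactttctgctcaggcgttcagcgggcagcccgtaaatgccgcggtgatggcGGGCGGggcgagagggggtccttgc

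A difference between Acadvl, Acadl and Hadha on the one hand and Acadm, Echs1 and Hadh on the other was seen after the values were known, so it is described by ratios within each mouse and carries no test. The log2 ratio of Acadvl to Acadm was 0.33, 0.37 and 0.403 in the HFD mice and 0.04, -0.0999 and -0.19 in the control mice. For Acadl to Acadm it was 0.59, 0.63 and 0.67 in the HFD mice and 0.36, 0.23 and 0.33 in the control mice. The ratio of Hadha to Echs1 was 2.08, 2.197 and 2.16 in the HFD mice and 1.402, 1.37 and 1.43 in the control mice. In all of these ratios each HFD mouse stood above each control mouse, HFD mouse 3 included, and the mean differences were 0.45, 0.32 and 0.74. The ratio of Hadha to Hadh differed by 0.59, again without overlap. A ratio within a mouse does not depend on the size factor of its library, and it shows unequal change rather than which of the genes changed. The pairs do not stand for a division by chain length of all the enzymes, since the medium-chain thiolase gene Acaa2 was higher without overlap, Acad9 and Acad11, which also take long chains, were lower or level, and the long-chain Hadhb overlapped.

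**Figure D4:**
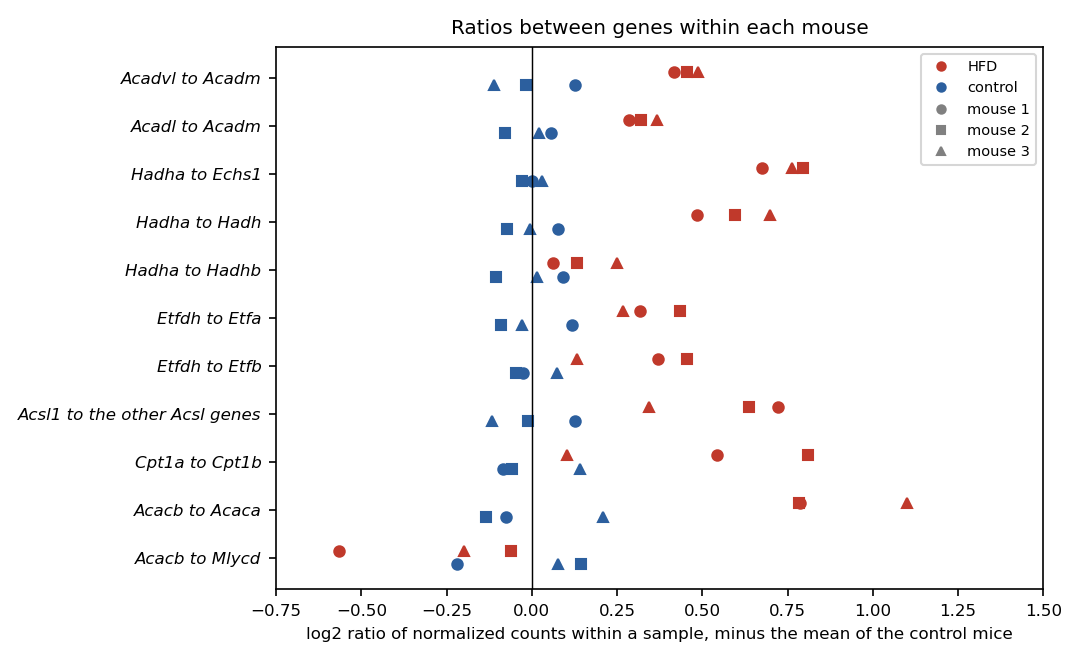
Log2 ratios between genes within each mouse (horizontal axis, minus the mean of the control mice) for 11 gene pairs, with control mice in blue, HFD mice in red and a symbol for each mouse. HFD and control points are apart for 8 of the 11 ratios, those of Acsl1 to the other synthetases, Acadvl and Acadl to Acadm, Hadha to Echs1 and Hadh, Etfdh to Etfa and Etfb, and Acacb to Acaca, and overlap for the other 3. The choice of pairs sets this count, since the 7 pairs picked after their values were seen are all apart, and of the 4 fixed pairs only that of Acsl1 is.

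The 4 auxiliary enzymes, which reshape the double bonds of unsaturated fatty acids so that they can pass through the spiral, were all higher in mean, with a median log2 fold change of 0.44. Ech1 (chr7:28825217-28832247), a dienoyl-CoA isomerase, had 15851, 14820.1 and 12839 normalized counts in the HFD mice and 10009, 9334 and 7860.0 in the control mice. The lowest HFD value was above the highest control value, and the means were 14504 ± 1531 against 9068 ± 1099 (SD, n = 3 each) (log2 fold change 0.68, SE 0.14, limma adjusted p = 0.055, DESeq2 adjusted p = 1.28e-04). Decr1, the mitochondrial dienoyl-CoA reductase, had 4996, 4448 and 3830.0 normalized counts in the HFD mice and 2997, 3079.7 and 2843 in the control mice. Its groups were apart as well (log2 fold change 0.57, SE 0.12, limma adjusted p = 0.0675, DESeq2 adjusted p = 0.00161). The enoyl-CoA isomerases Eci2 and Eci1 had log2 fold changes of 0.32 and 0.27, without overlap for Eci2 (1784 to 2249 in the HFD mice and 1485 to 1656 in the control mice) and with overlap for Eci1.

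Electrons from the acyl-CoA dehydrogenases pass to the electron transfer flavoprotein, encoded by Etfa and Etfb, and from it through its ubiquinone oxidoreductase, encoded by Etfdh. Etfdh had 7802, 7276 and 6396 normalized counts in the HFD mice and 5289, 5469 and 4891 in the control mice. These values did not overlap (log2 fold change 0.45, SE 0.12, limma adjusted p = 0.115, DESeq2 adjusted p = 0.0122). Etfb had 5847, 5136 and 5642 normalized counts in the HFD mice and 5214, 5464 and 4497 in the control mice, which overlapped, at a log2 fold change of 0.13. Etfa, with 6545, 5622 and 5555 normalized counts in the HFD mice and 5095, 6079 and 5209 in the control mice, overlapped as well, at 0.11. The log2 ratio of Etfdh to Etfa differed by 0.34 and that of Etfdh to Etfb by 0.32, each without overlap. Both ratios were likewise computed after the values were seen.

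The 6 peroxisomal genes had a median log2 fold change of 0.10, and neither limma nor DESeq2 called any of them. Pex11a, a peroxisome proliferation factor, had 452, 369 and 327 normalized counts in the HFD mice and 335, 264 and 250.3 in the control mice, with overlap (log2 fold change 0.43, SE 0.17, limma adjusted p = 0.346, DESeq2 adjusted p = 0.312). Decr2, the peroxisomal dienoyl-CoA reductase, had 268, 273 and 311 normalized counts in the HFD mice and 327, 342 and 321 in the control mice. Its HFD values were all lower, with a log2 fold change of -0.22 (limma adjusted p = 0.576), opposite in sign to its mitochondrial counterpart Decr1. The bifunctional enzyme genes Ehhadh and Hsd17b4 were at 0.39 and 0.08, the oxidase gene Acox3 at 0.12 and the thiolase gene Acaa1a at -0.08, all with overlapping groups. Since only uniquely mapped reads were kept, reads that match both Acaa1a and its close copy Acaa1b may be missing from the value of Acaa1a.

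Malonyl-CoA is made by the acetyl-CoA carboxylases, Acaca in the cytosol and Acacb at the mitochondrial surface, and removed by malonyl-CoA decarboxylase, Mlycd. Mlycd had 2273, 1882 and 1444 normalized counts in the HFD mice and 1365, 1124 and 1055 in the control mice. All 3 HFD values were higher, by little in mouse 3 (log2 fold change 0.64, SE 0.17, limma adjusted p = 0.123, DESeq2 adjusted p = 0.00978). Acacb had 4104, 4821 and 3364 normalized counts in the HFD mice and 3136, 3319.9 and 2972 in the control mice. They did not overlap either, with a log2 fold change of 0.37 (limma adjusted p = 0.308). Acaca had 318, 375 and 210.1 normalized counts in the HFD mice and 442, 488 and 344 in the control mice. The groups overlapped, and its log2 fold change of -0.52 was the lowest of the 43 genes (SE 0.22, limma adjusted p = 0.373). Per kilobase Acaca made up 3.93% ± 0.460 of the carboxylase level in HFD atria and 7.05% ± 0.809 in control atria (SD, n = 3 each). The log2 ratio of Acacb to Acaca was 3.69, 3.68 and 4.001 in the HFD mice and 2.83, 2.77 and 3.11 in the control mice, without overlap, and this pair was picked after its values were seen. The ratio of Acacb to Mlycd, which was fixed by function, was 0.85, 1.36 and 1.22 in the HFD mice and 1.2002, 1.56 and 1.49 in the control mice, which overlapped.

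A further 24 genes of fatty acid handling were listed by function, of which 19 passed the filter. At an unadjusted limma p under 0.05, 6 of the 19 were higher, where 6.66% of all genes were, and 1 was lower, where 5.55% of all genes were. The median log2 fold change of the 19 was 0.07. Those called higher by DESeq2 included Fabp4, an adipocyte and endothelial fatty acid binding protein, at a log2 fold change of 0.81 (DESeq2 adjusted p = 0.00191), and Slc25a20, the carrier that exchanges acylcarnitine for carnitine across the inner membrane, at 0.57 (DESeq2 adjusted p = 0.0127). Slc25a20 had 2502, 2072 and 1751 normalized counts in the HFD mice and 1461, 1528 and 1244 in the control mice. Its difference was close to that of Cpt2 (0.53), the enzyme it supplies. The 1 lower gene was Phyh, which starts the breakdown of phytanic acid, at -0.25. The other 5, Acox2, Acaa1b, Slc27a2, Slc27a5 and Slc27a6, fell below the filter.

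The size of the difference varied between the mice. Summed over the 43 genes, normalized counts were 243241, 227496 and 208808 in the HFD mice and 184225, 185180 and 167532 in the control mice, so all HFD sums lay above all control sums. Among the 17 genes higher at an unadjusted p under 0.05, HFD mouse 3 had the lowest HFD value in 15 and HFD mouse 1 the highest in 13, and among the controls mouse 3 had the lowest value in 12 and mouse 1 the highest in 10. The median fold of these 17 over the control mean was 1.56, 1.47 and 1.26 in HFD mice 1, 2 and 3. Over all 43 genes it was 1.28, 1.17 and 1.09. Without HFD mouse 3 limma called 10 of the 43 genes higher (Cd36, Slc27a1, Acsl1, Slc22a5, Cpt1a, Cpt2, Ech1, Decr1, Etfdh and Mlycd) and 342 genes in all, against 0 and 114 with it. Leaving out any other mouse called 0 of the 43.

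Markers of the cell types in the tissue also varied, and limma called 1 of 6 atrial myocyte markers lower (Sbk2), 2 of the 5 tested brown adipocyte markers higher (Ucp1 and Cidea), 1 of 6 macrophage markers higher (Itgam) and no white adipocyte, ventricular or endothelial marker. DESeq2 called 2 of 10 white adipocyte markers higher (Fabp4 and Adrb3) and 3 of the 5 tested brown ones (Ucp1, Cidea and Dio2). It also called 1 of 6 endothelial markers (Pecam1) and 1 of 6 macrophage markers (Itgam) higher, 1 atrial marker (Sbk2) lower and no ventricular marker. Of all genes it called 1.94% higher and 1.22% lower. Of the 10 white adipocyte markers 9 were higher in mean log2 value and 1 lower, with a median log2 fold change of 0.65. All 6 atrial myocyte markers were detected in every library, 5 of them had a lower mean log2 value in HFD atria, and their sums were 287590, 288452 and 520943 in the HFD mice and 485424, 484676 and 445759 in the control mice. HFD mice 1 and 2 thus had the lowest sums, while HFD mouse 3 was above every control. Nppa makes up most of each sum, and the markers did not move together. In HFD mouse 3 Nppa, Myl4 and Bmp10 were above every control, while Sln (19799) and Sbk2 (2368) were below every control. By mean log2 value over the 6 markers HFD mouse 3 (14.87) lay within the control range (14.65 to 14.96), and HFD mice 1 and 2 (14.07 and 14.33) lay below it. Nppa, which encodes atrial natriuretic peptide, had 171702, 179008 and 333975 normalized counts in the HFD mice and 294185, 305627 and 263703 in the control mice. Brown adipocytes oxidize fatty acids with many of the same enzymes, and the part of any of these cell types in the differences was not tested. The 5 ventricular myocyte markers were highest in control mouse 2, at a sum of 17399 against 6882 to 9866 in the other mice.

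**Figure D5:**
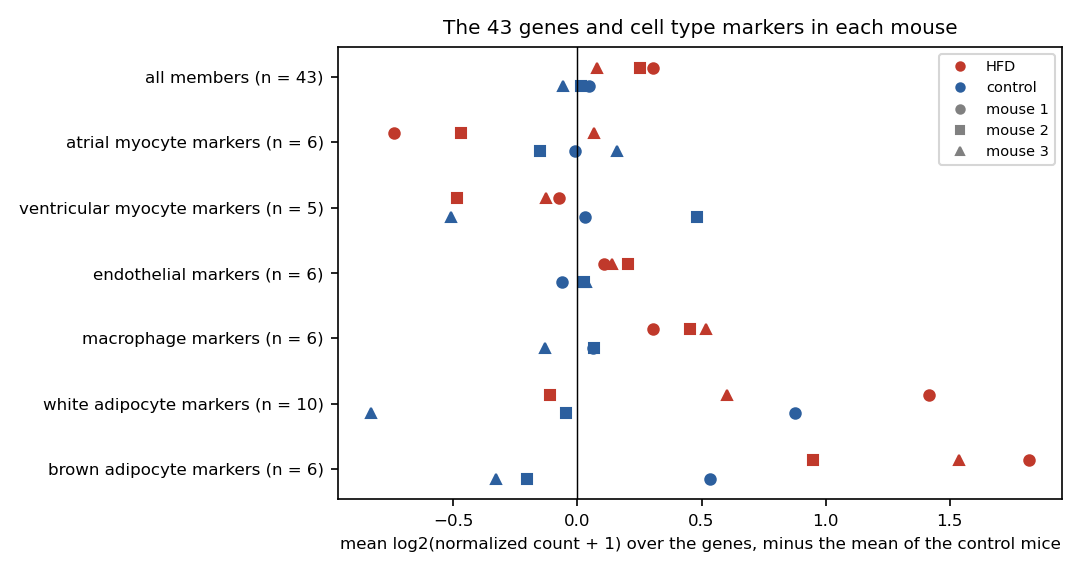
Mean log2(normalized count + 1) of the 43 genes and of each list of cell type markers in each mouse (horizontal axis, minus the mean of the control mice), with control mice in blue, HFD mice in red and a symbol for each mouse. The 43 genes, the brown adipocyte, endothelial and macrophage markers are higher in each HFD mouse than in each control mouse, and the atrial, ventricular and white adipocyte markers overlap.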

How the data were processed

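Atrial RNA of 3 HFD and 3 control mice was sequenced after preparation with a NEBNext Ultra directional kit. Per the submitters' notes and the study's methods, the authors checked reads with FastQC, aligned them with STAR to GRCm38 (Ensembl annotation), kept uniquely mapped reads, assigned them to genes with Salmon and ran DESeq2. Tool versions and the use of strand in counting are not given in the sources used here. The deposited signal per gene and mouse is the authors' count divided by a DESeq2 size factor, called the normalized count here. The deposited table also holds a mean over all samples and the authors' own comparison, as log2 fold changes with standard errors, p-values and 2 scores (a test statistic and a ranking metric), and these columns were not used. The diet was taken from the sample titles, against the treatment field.

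Dividing each library's values by its smallest positive value returned whole reads for 100% of values (tolerance 0.01). In HFD mouse 1 the size factor was so close to 1 that values and reads nearly coincide. The 1 row without a gene name held 0 reads. Genes averaging 10 or more across the 6 mice were compared in R 4.3.3 with limma 3.58.1 (lmFit, and eBayes with its trend option) after the transformation log2(normalized count + 1), so that fold changes of low genes are understated, with Benjamini-Hochberg adjustment over all 15275 genes. All 6 mice entered without covariates. The recovered reads were tested with edgeR 4.0.16 (quasi-likelihood, TMM or RLE factors) and DESeq2 1.42.0. The model fits were tested on simulated data. The 43 genes and all lists were chosen with earlier results of these data known, so no set of genes was tested, and counts are read beside those of all genes. Values of every mouse are given for the 2 genes with the smallest p in each step and for the genes of the ratios (4 of them fixed by function, 7 picked after values were seen), and values of Acadm, Acaca and the other genes described were added after they were seen. Some genes of the further list are not reported here. Lengths are unions of exons in GENCODE M21 over all annotated transcripts, whether or not these are used in atria. Levels and shares per kilobase are therefore approximate between genes. Promoter sequences are from RefSeq. Precision of single values was set by the spread between mice, and floors of 3 reads cover counting error only.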

Additional observations from a re-analysis of the deposited data

How the results depend on the processing

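Of 688 recomputed gene results 648 kept their direction and side of the adjusted threshold, 25 newly passed it and 15 changed sign. With 0 of the 43 called at first, staying uncalled says little about stability. The 15 came with a mouse left out in 6 genes, all near 0 but Slc27a4. Slc27a4, at 0.19 with all mice, changed sign only without HFD mouse 3. With a mouse left out, log2 fold changes ran from -0.0056 to 0.32 for Slc27a4, -0.073 to 0.19 for Acsl4, -0.085 to 0.022 for Acadm, -0.17 to 0.099 for Acads, -0.051 to 0.061 for Acad11 and -0.14 to 0.045 for Acad12. The other 37 never changed sign. The median of the 43 stayed between 0.18 and 0.30 with a mouse left out, lowest without control mouse 3 and highest without HFD mouse 3.

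The adjusted calls depended on the setting. Of the 43, limma called 0 higher, but 1 (Cpt1a) with no filter, where 135 genes were called in all, 2 (Cpt1a and Ech1) with at least 10 in every mouse, where 137 were, 11 with DESeq2, and 0 to 10 with a mouse left out, the 10 without HFD mouse 3. Over all genes the 114 calls became 483 with DESeq2, 0 without a variance trend (1717 at an unadjusted p under 0.05), 69 with a log2 fold change above 1 or below -1 also required, and 14 to 342 with a mouse left out, 14 without control mouse 2 and 342 without HFD mouse 3, with 52, 24, 50 and 19 without HFD mice 1 and 2 and control mice 1 and 3. The 17 genes higher at an unadjusted p became 11 to 22, with 11 without HFD mouse 1, where all genes in both directions went from 1864 to between 1245 and 2227, and the 3 lower became 1 without a trend and 1 to 2 with a mouse left out. Fits that leave a mouse out rest on 5 mice, and the causes were otherwise not tested.

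The titles number the mice 1 to 3 in each group, but name no litter, batch or day that a number shares, so the numbers were not taken as pairs. Deviations from the group means correlated at 0.12, -0.027 and -0.0039 within numbers 1, 2 and 3, and HFD mouse 2 correlated best with control mouse 3 (0.16). With 3 mice per group these deviations constrain one another, and the correlations cannot show whether a litter, batch or day was shared. With the replicate number as a block, 157 genes were called in place of 114, among them 1 of the 43, Ech1 (limma adjusted p = 0.0471).

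Samples of 3 per group limit the smallest difference that can be called, and the labels conflict on the diet. Without stated strand use antisense reads cannot be told apart.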
